A study of Mus musculus with 8 samples.

Results

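Acute-phase proteins and genes of reactive glia were examined in the retina of mice that lack lysophosphatidylcholine acyltransferase 1 (Lpcat1, which attaches a fatty acid to lysophosphatidylcholine). The 10 genes were chosen by name, with earlier results of these data known: Serpina3n, A2m, Cp, Lcn2, Timp1, Steap4, Bcl3, Fgf2, Cntf and Cd44. All non-control probes whose transcript belongs to one of them were taken, which gave 14 probes for these 10 of the 20018 genes named on the array. The study hybridised total RNA from the whole retina of 2-week-old mice to Agilent arrays in 1 colour (Cy3), with 4 wildtype (WT) and 4 Lpcat1 knockout (KO) samples of strain C57BL/6. Both genotypes came from a knockout line made on C57BL6/N and crossed to C57BL6/J, and mice homozygous for the rd8 mutation of Crb1, which itself causes retinal degeneration, were left out by the authors. The labels do not say that the samples were separate animals, so p-values measure only the spread between these samples. In total RNA of a whole tissue, fewer cells of a type and less RNA per cell cannot be told apart.

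The acute-phase response is the change in plasma proteins, made mainly by the liver, that follows tissue injury, and is driven by cytokines that signal through gp130 and STAT3, C/EBP factors and NF-kB. Several of its genes are also made by astrocytes and Mueller glia, the radial support cells of the retina, when neurons are damaged, and Serpina3n, Lcn2, Steap4, Timp1 and Cd44 belong to the genes that mark reactive astrocytes in many kinds of injury. Fgf2 and Cntf are trophic factors that protect photoreceptors from degeneration in several animal models.

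Levels are given as log2 of the processed signal minus the 75th percentile of the same array, and differences as KO minus WT on this scale. The 75th percentile lay between 669 and 716 signal units on the WT arrays and between 638 and 738 on the KO arrays, and 0 spots were saturated. The lowest level of a probe well above background was -5.23 to -5.08 in WT and -5.11 to -4.71 in KO. All arrays shared 1 slide, with WT in one row and KO in the other, so row and genotype cannot be told apart. The Lpcat1 probe read -0.42, -0.39, -0.43 and -0.38 in WT and -0.88, -0.92, -0.90 and -0.78 in KO, a difference of -0.46 (SE 0.04, limma adjusted p = 0.0036). By the brightest probe of each gene, rod markers were lower in KO in 11 of 11 genes tested (median -0.24), Gnat1 by only 0.04. Of these, 4 were called lower, where 1.77% of all tested genes were. Microglia and macrophage markers were higher in 14 of 14 (median 0.31), though Itgam (0.02) and P2ry12 (0.06) hardly differed. Of these, 7 were called higher, where 2.2% of all tested genes were. A dimmer probe of Csf1r (-0.16) and 1 of Itgam (-0.03) went the other way.

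Of the 10 genes, Fgf2 was the one that passed. A call needed a limma adjusted p under 0.05 together with a change of more than 1.2-fold, which 2.92% of the 33972 tested probes reached, and a gene was called when 1 of its probes was. Of the 10 genes, 8 had a probe that cleared the background on every array of at least 1 genotype and could be tested, with 10 probes between them. There was 1 gene called higher in KO, Fgf2, where 2.2% of all 14939 tested genes were called higher, and 0 called lower, where 1.77% were. An adjusted p under 0.05 alone was reached by 2 member probes, Fgf2 and Cp, against 5.5% of all tested probes. At an unadjusted p under 0.05 there were 4 higher, where 8.13% of all tested probes were, and 1 lower, where 15.6% were. Every KO value lay above every WT value in 4 of the 10 tested member probes (Fgf2, Cp, Bcl3 and 1 probe of Cd44), and 6.04% of all tested probes did so. In 1 (Lcn2) the KO values were all below the lowest WT value, and 11.4% of all tested probes did so. By the brightest probe of each gene, 6 of the 8 tested genes had a positive difference and 2 a negative one, with a median of 0.27 and a range of -0.23 to 0.34. With a normexp background correction the median was 0.17, and Serpina3n, 1 of the 2 negative genes, turned to 0.07. Serpina3n passed the background filter through WT alone, so its sign carries little weight in this count. The median over all tested genes was -0.02. Since the members were chosen with earlier results of these data known, their counts and median beside those of all probes and genes are description only.

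**Figure D1:**
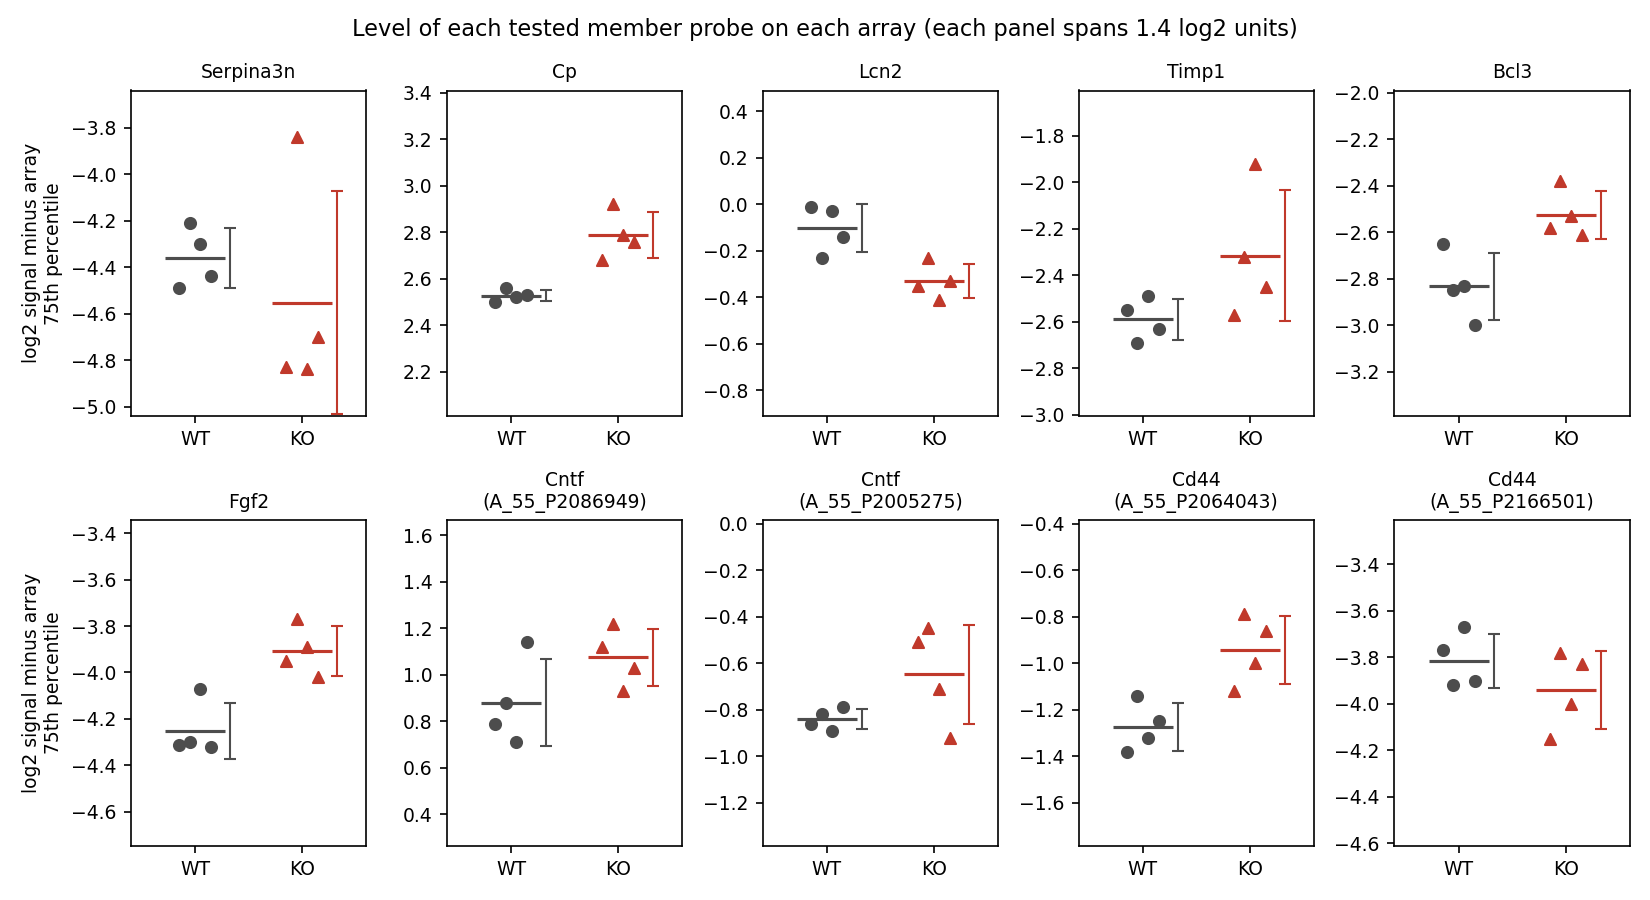
Level of each of the 10 tested member probes on each array, as log2 signal minus the array's 75th percentile (vertical axis), for the 4 WT arrays (grey circles) and the 4 KO arrays (red triangles); horizontal lines are means and the bars beside them are SDs. The KO points lie above all WT points for Cp, Bcl3, Fgf2 and Cd44 probe A_55_P2064043 and below them for Lcn2, and 1 KO array stands far above the other KO arrays for Serpina3n.

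Promoter sequences were searched for the motifs of the factors that drive the acute-phase response. RefSeq windows of 250 bases before the start (build GRCm38.p6) were at hand for 9 of the 10 members, in 10 windows, and A2m had no entry. Both strands of the full 250 bases were searched, and the motifs may overlap each other. The STAT motif TTCNNNGAA was found in 1 member window (Steap4; 7.02% of all 32851 windows hold it), the C/EBP motif TTGCNNAA in 3 (Cp, Lcn2 and Steap4; 9.56% of all), the AP-1 motif TGANTCA in 2 (Cntf and Cp; 6.75% of all) and the NF-kB consensus in 1 (Steap4; 3.9% of all). The following are shown because Fgf2 was the member called, Cp and Lcn2 were separated in opposite directions, and Steap4, not well above background here, held the motifs of 3 of the factors. Each runs 5′ to 3′ from the start of its window to the base before the annotated gene, with the matched motifs in capitals. Where the annotated gene begins inside the window, the rest of the window is not printed, which leaves 74 bases for Fgf2 and 129 for Cp. Fgf2 (chr3:37348403-37348476, plus strand) holds none in its window, Cp (chr3:19956804-19956932, plus strand) an AP-1 motif, Lcn2 (chr2:32387740-32387989, minus strand) a C/EBP motif, and Steap4 (chr5:7960222-7960471, plus strand), from its first base on, the NF-kB consensus at 2 places, then a STAT and a C/EBP motif. The C/EBP motif of Cp lies in the other Cp window, which is not shown. A match describes the letters of the window only.
Fgf2: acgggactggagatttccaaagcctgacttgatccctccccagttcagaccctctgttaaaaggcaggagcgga
Cp: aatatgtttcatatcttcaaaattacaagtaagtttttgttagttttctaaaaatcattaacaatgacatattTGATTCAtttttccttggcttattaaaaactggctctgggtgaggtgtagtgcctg
Lcn2: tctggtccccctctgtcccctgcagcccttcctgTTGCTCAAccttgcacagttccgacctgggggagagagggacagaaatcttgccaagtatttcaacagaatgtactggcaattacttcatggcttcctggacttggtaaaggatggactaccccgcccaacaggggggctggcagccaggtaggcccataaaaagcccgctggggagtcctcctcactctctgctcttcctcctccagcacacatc
Steap4: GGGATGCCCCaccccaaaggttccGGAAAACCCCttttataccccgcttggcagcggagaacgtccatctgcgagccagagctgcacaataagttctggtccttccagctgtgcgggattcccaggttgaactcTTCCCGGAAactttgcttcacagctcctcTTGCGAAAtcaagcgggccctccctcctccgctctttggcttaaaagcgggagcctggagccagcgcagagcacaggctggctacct

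Fgf2, a heparin-binding growth factor, was read by a probe printed 10 times on each array. Its level was -4.31, -4.30, -4.07 and -4.32 in WT and -3.95, -3.77, -3.89 and -4.02 in KO. WT replicate 3 was the highest of the WT arrays and still lay below the lowest KO array. The difference was 0.34 (SE 0.07, 95% confidence interval 0.17 to 0.51, limma adjusted p = 0.0403), or 1.27-fold (two-sided exact permutation p = 0.0286, the smallest that 4 against 4 can give). The probe was dim, with 34.6 to 41.5 signal units in WT and 42.1 to 54.5 in KO, though well above background on all 8 arrays. Member probes not well above background on any array also had higher means in KO. These were -7.18 in WT and -6.92 in KO for Steap4. For Cd44 they were -5.46 and -4.89 at probe A_55_P2166486, and -6.62 and -6.13 at probe A_55_P2166488. The part of background in the Fgf2 difference was not tested. The Fgf2 call was lost when any 1 array other than WT replicate 3 was left out (differences 0.30 to 0.40, adjusted p 0.0377 to 0.107 over the 8 omissions). With a normexp background correction the difference was 0.17. The methods' t-test (adjusted p = 0.0613), a median shift (0.0568), no filter on dim probes (0.109) and limma with trend and robust eBayes (0.113) also gave an adjusted p above the limit.

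Among 16 tested FGF ligands and receptors other than Fgf2, 0 were called by limma or by the methods' t-test, 3 were higher and 1 lower at an unadjusted p under 0.05, and their median difference was 0.08. Fgf1, the other broadly acting ligand of the family, was named here after its value was seen. Its brighter probe lay higher on all KO arrays than on any WT array, with a difference of 0.26 (SE 0.06, limma adjusted p = 0.0385), which fell short of the 1.2-fold limit. For Fgfr1, a receptor for both, the brightest probe differed by 0.16 (SE 0.04, limma adjusted p = 0.0655).

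Cntf, a cytokine that acts through gp130, had a pair of probes well above background on all arrays. The first, A_55_P2086949, read 0.79, 0.88, 0.71 and 1.14 in WT and 1.12, 1.22, 0.93 and 1.03 in KO. The second, A_55_P2005275, read -0.86, -0.82, -0.89 and -0.79 in WT and -0.51, -0.45, -0.71 and -0.92 in KO. Genotypes overlapped at both probes, through WT replicate 4 at the first and KO replicate 4 at the second. Both probes gave a difference of 0.19 (SE 0.10 each, limma adjusted p = 0.297 and adjusted p = 0.279). The distance between both probes on the same array was 1.72 ± 0.15 in WT and 1.72 ± 0.15 in KO (SD, n = 4 each, exact permutation p = 0.971). In the RefSeq annotation Cntf lies wholly inside Gm44505, a non-coding readthrough transcript that starts at the neighbouring gene Zfp91, and no probe was matched to Gm44505. The Zfp91 probe differed by -0.03 (SE 0.05, limma adjusted p = 0.773).

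The genes through which Cntf and its relatives signal were counted next. Of 19 tested genes of the gp130 and STAT3 pathway other than the members, 2 were called higher and 0 lower by limma (6 higher and 2 lower at an unadjusted p under 0.05), with a median of 0.06. Osmr, the oncostatin M receptor, read -0.84, -0.80, -0.82 and -0.82 in WT and -0.53, -0.26, -0.41 and -0.42 in KO (difference 0.41, SE 0.06, adjusted p = 0.0124). Stat3, the transcription factor of the pathway, differed by 0.38 at its brighter probe (SE 0.05, limma adjusted p = 0.00787) and by 0.37 at its dimmer one, which was not called (SE 0.10, adjusted p = 0.0708). The receptor subunits Cntfr (0.16, SE 0.08) and Il6st (0.14, SE 0.06), which encodes gp130, and the feedback inhibitor Socs3 (0.17, SE 0.07) were named after their values were seen, and none was called (limma adjusted p 0.278, 0.188 and 0.171). The cytokines Il6 and Lif were not well above background on any array.

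Cp encodes ceruloplasmin, the copper-binding ferroxidase of plasma, which glia also carry at their surface. Its signal was 3790 to 4220 units in WT and 4180 to 5600 in KO. The level was 2.50, 2.56, 2.52 and 2.53 in WT and 2.68, 2.92, 2.79 and 2.76 in KO. The WT arrays lay within a narrow band and every KO array lay above it. The difference of 0.26 (SE 0.05, 95% confidence interval 0.13 to 0.39, limma adjusted p = 0.0375, exact permutation p = 0.0286) equals 1.197-fold and stopped just short of the limit of 1.2. Cp was called under 7 of 21 alternative settings, among them quantile normalization (0.28, adjusted p = 0.0301) and the authors' own normalized values (0.27, adjusted p = 0.0363), and when single arrays were left out its adjusted p was 0.0287 without KO replicate 1 and 0.07 to 0.0925 without any of the other 7.

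Lcn2 encodes lipocalin-2, which binds iron-carrying bacterial siderophores and is among the most strongly induced genes in reactive astrocytes. Here its level was -0.01, -0.23, -0.03 and -0.14 in WT and -0.35, -0.23, -0.41 and -0.33 in KO. The arrays did not overlap, although WT replicate 2 and KO replicate 2 both round to -0.23. The difference was -0.23 (SE 0.06, 95% confidence interval -0.38 to -0.09, limma adjusted p = 0.0693, exact permutation p = 0.0286), or 1.17-fold lower in KO, and it was called under 0 of 21 alternative settings (adjusted p 0.0263 to 0.163). Neutrophils also store lipocalin-2. Of 10 neutrophil markers with a probe, 3 were tested and 0 called by limma or the methods' t-test (0 at an unadjusted p under 0.05), with differences of -0.10 (Elane), 0.05 (Camp) and -0.06 (Csf3r), and S100a8, Mpo, Ltf, Ngp, Retnlg and Cxcr2 were not well above background on any array. Their summed level, in multiples of the 75th percentile and carried by Csf3r, was 154 to 192 in WT and 153 to 180 in KO.

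Serpina3n, a secreted inhibitor of serine proteases, had a dim probe that was well above background on 4 WT and 3 KO arrays, so it entered the test through WT alone. The level was -4.49, -4.21, -4.30 and -4.44 in WT and -4.83, -3.84, -4.84 and -4.70 in KO. In KO, 3 arrays lay below all WT arrays and KO replicate 2 lay above them. The difference was -0.19 (SE 0.21, 95% confidence interval -0.69 to 0.30, limma adjusted p = 0.628). Without KO replicate 2 it was -0.43 (adjusted p = 0.054), and with a normexp background correction it turned to 0.07 (adjusted p = 0.469), so no direction can be given. The upper end of the interval equals a rise of 1.23-fold.

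The Serpina3 genes lie side by side and share long stretches of sequence, so a probe may read its neighbours too. Of 8 other genes of the cluster with a probe, 2 could be tested. Serpina3b fell by 0.58 (SE 0.10, limma adjusted p = 0.0233), from -2.77 ± 0.12 in WT to -3.35 ± 0.19 in KO (SD, n = 4 each). Serpina3h read -4.06, -4.78, -4.62 and -4.42 in WT and -6.15, -3.40, -5.01 and -5.69 in KO, well above background on 1 KO array, so that it entered the test through WT alone, and was not called (-0.59, SE 0.53, adjusted p = 0.545). Its KO replicate 2 stood above the other arrays, as it did for Serpina3n.

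A2m encodes alpha-2-macroglobulin, a plasma protein that traps proteases. Its probe was well above background on 3 WT and 3 KO arrays and was therefore not tested. The level was -4.54, -4.87, -4.52 and -4.89 in WT and -4.31, -4.44, -4.69 and -4.02 in KO, with overlap between the genotypes. Its receptor Lrp1, named after its value was seen, differed by 0.14 (SE 0.05, limma adjusted p = 0.162).

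Beyond the members, 11 of 22 classical liver acute-phase genes could be tested and 1 was called, Hpx (hemopexin, which carries free heme). Hpx rose by 0.60 (SE 0.09, limma adjusted p = 0.0153), from -2.23 ± 0.15 in WT to -1.64 ± 0.13 in KO (SD, n = 4 each). The median of the 11 was 0.08. Crp, Orm1, Orm2 and Saa3 were not well above background on any array. Ahsg and Hp, chosen after their values were seen, had differences of 1.14 and 0.60 that were not called (SE 0.90 and 0.42, limma adjusted p = 0.484 and adjusted p = 0.426), and KO replicate 1 was the highest KO array and WT replicate 4 the highest WT array for both. Of 4 tested blood markers, KO replicate 1 was the highest KO array for 3 (Hbb-bt, Hba-a1 and Alas2, not Slc4a1) and WT replicate 4 the highest WT array for 3 (Hbb-bt, Alas2 and Slc4a1, not Hba-a1). Their summed level was 10.2 to 13.6 in WT and 11.1 to 16.1 in KO, and the part of blood in these values was not tested.

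Timp1, a secreted inhibitor of matrix metalloproteinases, read -2.55, -2.69, -2.49 and -2.63 in WT and -2.57, -2.32, -1.92 and -2.45 in KO. KO replicate 3 was the highest array and KO replicate 1 fell among the WT arrays. The difference was 0.27 (SE 0.13, 95% confidence interval -0.02 to 0.57, limma adjusted p = 0.248), and it was 0.14 without KO replicate 3. Among 16 tested relatives and target proteases, Adamts1 (0.57, SE 0.08, limma adjusted p = 0.013) and Mmp9 (0.31, SE 0.07, adjusted p = 0.0455) were called higher and 0 lower (5 and 2 at an unadjusted p under 0.05), with a median of 0.05. Both are secreted proteases that cut matrix proteins.

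Steap4, a metalloreductase that reduces iron and copper at membranes, did not clear the background on any of the 8 arrays, at 4.39 to 5.06 signal units in WT and 4.64 to 7.05 in KO. No difference can be given for this gene, the one member whose promoter window held the STAT motif. Of 16 tested genes of iron and siderophore handling, 0 were called higher by limma (3 higher and 4 lower at an unadjusted p under 0.05) and Steap1, another metalloreductase of the family, was called lower (-0.44, SE 0.07, adjusted p = 0.0149), from -1.38 ± 0.03 to -1.82 ± 0.13 (SD, n = 4 each). The median of the list was 0.05.

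Bcl3, an atypical I-kB protein that binds NF-kB in the nucleus, read -2.65, -2.85, -2.83 and -3.00 in WT and -2.58, -2.38, -2.53 and -2.61 in KO. The lowest KO array lay just above the highest WT array, WT replicate 1, and none of the searched motifs was found in its promoter window. The difference was 0.31 (SE 0.08, 95% confidence interval 0.12 to 0.50, limma adjusted p = 0.0686, exact permutation p = 0.0286), which was not called. With a normexp background correction it was 0.20 (adjusted p = 0.0728). Of 10 tested relatives, Nfkbiz, another nuclear I-kB protein, differed by 0.55 (SE 0.10, limma adjusted p = 0.0269) and Relb, an NF-kB subunit, by 0.33 at its brighter probe (SE 0.05, adjusted p = 0.0182). These were the 2 called, both higher in KO, and the median of the list was 0.13.

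Cd44, the surface receptor for hyaluronan, had 4 probes, of which 2 could be tested, and these disagreed. Probe A_55_P2064043 read -1.38, -1.14, -1.32 and -1.25 in WT and -1.12, -0.79, -1.0 and -0.86 in KO, and the lowest KO value lay just above the highest WT value. Probe A_55_P2166501 read -3.77, -3.92, -3.67 and -3.90 in WT and -4.15, -3.78, -4.0 and -3.83 in KO, with overlap. The differences were 0.33 (SE 0.08, 95% confidence interval 0.14 to 0.52, limma adjusted p = 0.0584) and -0.13 (SE 0.09, 95% confidence interval -0.34 to 0.09, adjusted p = 0.452), and neither was called. When single arrays were left out they ran from 0.28 to 0.39 and from -0.18 to -0.06. The second probe was dim, at 36.8 to 54.4 signal units, though well above background on all 8 arrays. The other 2 probes were not well above background on any array.

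The disagreement was larger than the spread between arrays. The first Cd44 probe exceeded the second on the same array by 2.38, 2.78, 2.35 and 2.65 in WT and by 3.04, 2.99, 3.00 and 2.96 in KO. This distance, which a shift of the whole array cannot move, was 2.54 ± 0.21 in WT and 3.0 ± 0.03 in KO (SD, n = 4 each), 0.46 wider in KO (two-sided exact permutation p = 0.0286). It restates the differences of both probes given above and is not separate support for them. The second probe is dim, and the part of background in this distance was not tested. The differences of the first and second probe were 0.35 and -0.06 with cyclic loess and 0.28 and -0.10 with normexp, which brings them closer than the 0.33 and -0.13 reported. Where the probes lie along the transcript was not analysed here. Of 10 tested ligands and partners of Cd44, 1 was called. Spp1 (osteopontin, a secreted ligand made by activated microglia and glia) rose by 0.65 (SE 0.07, limma adjusted p = 0.00548), from -3.12 ± 0.13 to -2.47 ± 0.07 (SD, n = 4 each), and the median of the list was 0.01.

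**Figure D2:**
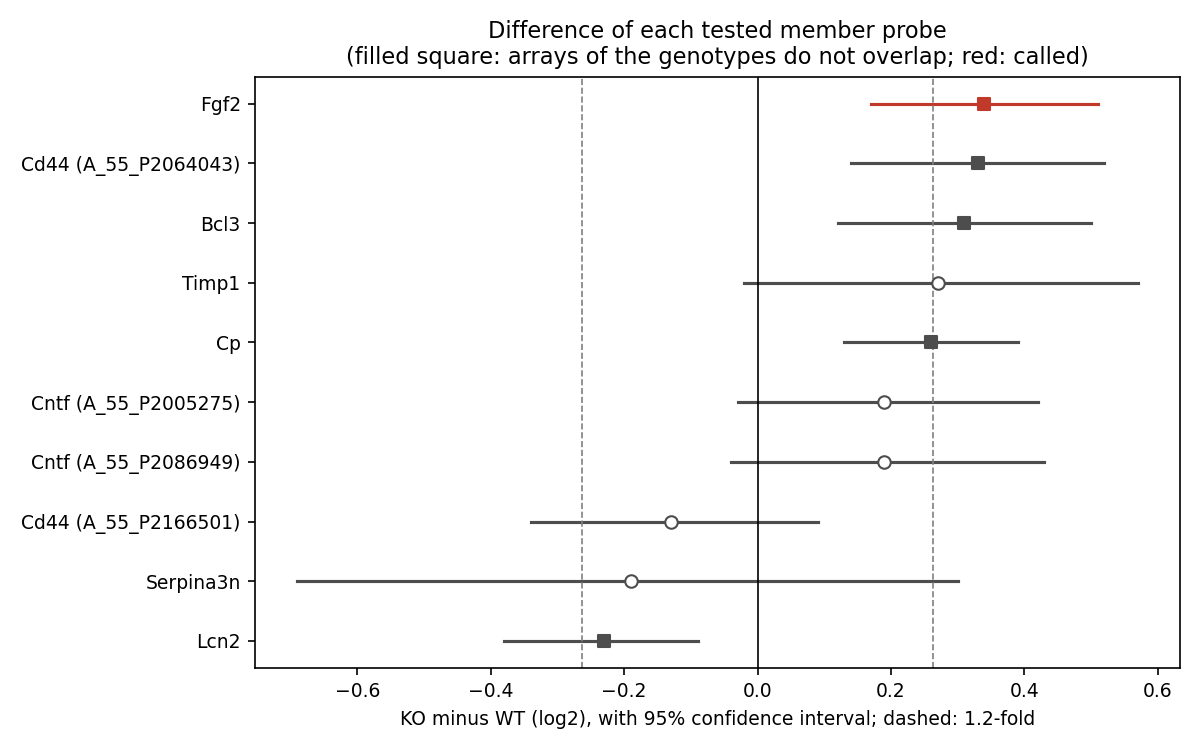
Difference between KO and WT of each tested member probe (horizontal axis, log2) with its 95% confidence interval from limma; squares mark probes whose arrays do not overlap between genotypes, open circles those that overlap, red the called probe and dashed lines a 1.2-fold change. The intervals of Fgf2, Cd44 probe A_55_P2064043, Bcl3 and Cp lie above 0, that of Lcn2 lies below it, and the interval of Serpina3n from -0.69 to 0.30 is the widest.

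The other genes that mark reactive astrocytes were counted in the same fit. Of 7 further pan-reactive genes tested, 1 was called, Osmr, and the median was 0.06. Gfap, the intermediate filament of reactive glia, was named after its values were seen. Its brighter probe read -1.38, -0.54, -1.48 and -1.32 in WT and -0.91, -0.46, -0.67 and -0.61 in KO. WT replicate 2 stood above the other WT arrays and among the KO arrays, and the same array was highest in WT at the dimmer probe. Neither was called (0.51, SE 0.20, limma adjusted p = 0.174, and 0.52, SE 0.15, adjusted p = 0.0837). The other intermediate filament genes of the list, Vim (0.03, SE 0.04) and Nes (-0.09, SE 0.03), were not called either.

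Genes that astrocytes raise in neuroinflammation and those that they raise after ischaemia form separate published lists, known as A1 and A2. Of 10 tested A1 genes, 3 were called higher and 0 lower (6 and 0 at an unadjusted p under 0.05), with a median of 0.18. These were Gbp2, an interferon-induced GTPase (0.68, SE 0.10, limma adjusted p = 0.013), H2-T23, an MHC class I molecule (0.35, SE 0.07, adjusted p = 0.0309), and Serping1, the inhibitor of complement component C1 (0.28, SE 0.06, adjusted p = 0.042). Of 9 tested A2 genes, 0 were called by limma or the methods' t-test, with a median of -0.08 and with 2 higher and 1 lower at an unadjusted p under 0.05. The lists were not compared with each other by a test. Over the 12 companion lists together, 124 of 167 genes were tested, 11 were called higher and 2 lower. Among all tested genes, 2.2% were called higher and 1.77% lower. The lists were chosen with earlier results of these data known, so these counts are description only.

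Markers of the cells that could carry these transcripts were measured on the same arrays. Of 14 tested Mueller glia markers, 12 were positive and 3 called higher, namely Clu (0.30, SE 0.04, limma adjusted p = 0.0146), Apoe (0.29, SE 0.04, adjusted p = 0.0122) and the potassium channel Kcnj10 (0.31, SE 0.05, adjusted p = 0.0155). Their summed level, in multiples of the 75th percentile, was 349 to 368 in WT and 417 to 425 in KO. Of 6 astrocyte markers, 0 were called by limma or the methods' t-test and 3 were higher at an unadjusted p under 0.05 (median 0.12, summed level 165 to 169 in WT and 177 to 186 in KO). Most of the astrocyte sum is Aldoc, and without it the sum was 15.4 to 17.3 in WT and 17.2 to 18.2 in KO. The summed level of microglia and macrophage markers was 32.5 to 39.9 in WT and 36.9 to 42.5 in KO. Itgam is the largest part of this sum (difference 0.02, adjusted p = 0.949), and without Itgam it was 14.0 to 15.3 in WT and 18.1 to 19.0 in KO, with no overlap. Among markers of the pigment epithelium, 1 of 9 was called higher (Mitf, 0.31, SE 0.05, adjusted p = 0.0178), and the median was 0.07. The endothelial markers had a median of -0.14, with 0 of 8 called by limma or the methods' t-test and 4 lower at an unadjusted p under 0.05. The part of these cells in the differences of Fgf2, Cp, Bcl3 and Cd44 was not tested.

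**Figure D3:**
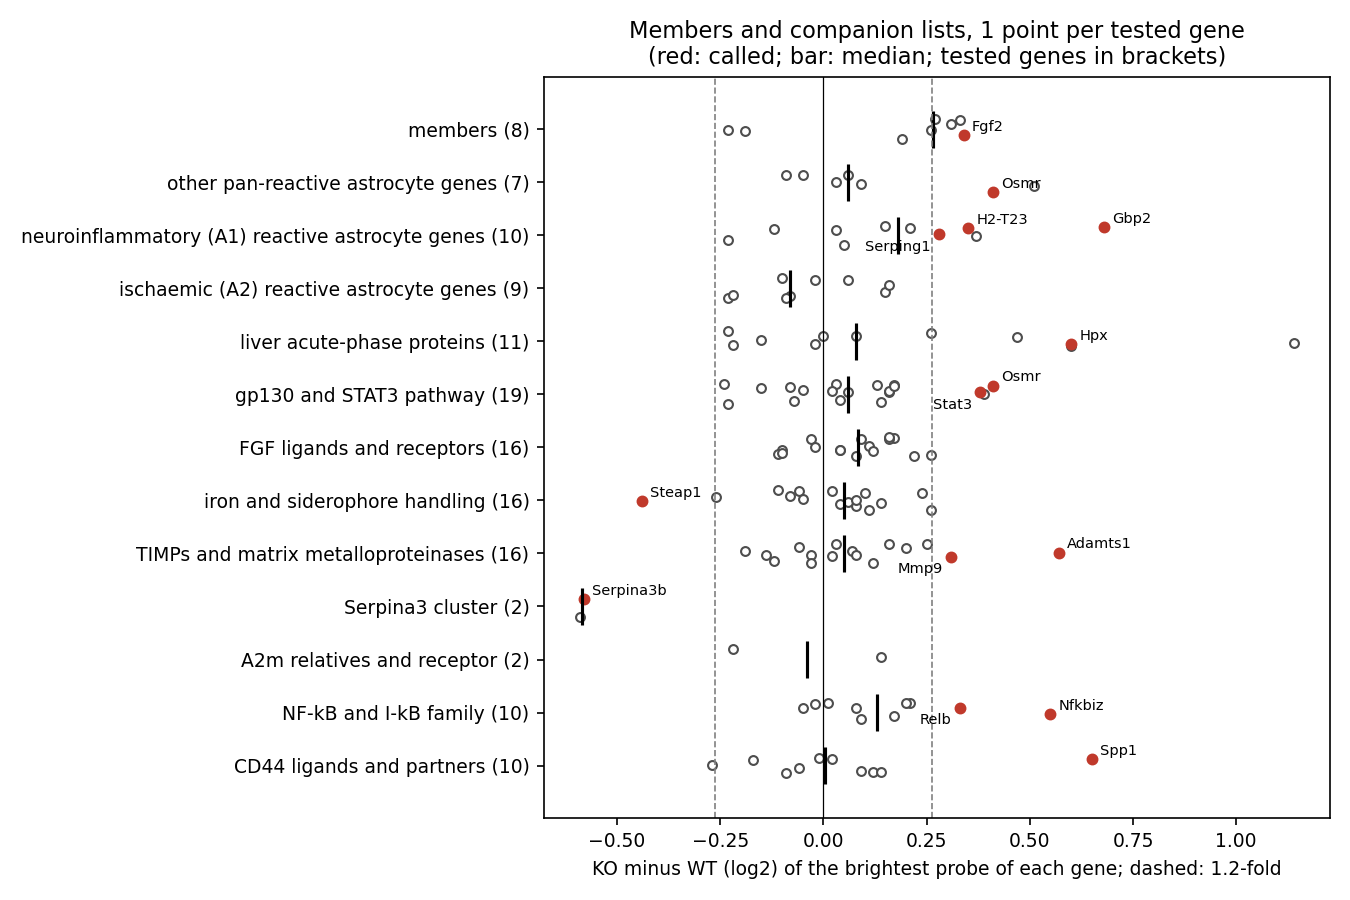
Difference between KO and WT (horizontal axis, log2, brightest probe) of each tested gene of the members and of the 12 companion lists; red points are called genes with their names, open points were not called, bars are medians and dashed lines mark 1.2-fold. The members' median of 0.27 (0.17 with normexp) lies beside medians from -0.08 (A2 genes) to 0.18 (A1 genes) in the companion lists with at least 7 tested genes; the Serpina3 cluster and the A2m relatives have 2 tested genes each.

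The members were then compared from array to array within a genotype. After each genotype's mean was subtracted, KO replicate 2 lay above the KO mean in 7 of the 8 tested members, the exception being Timp1 at 0. Its mean deviation, with each member scaled to an SD of 1, was 1.36, against -0.81 for KO replicate 1 and values between -0.39 and 0.21 for the other arrays. KO replicate 2 also had the highest 75th percentile signal (738) and the fewest probes well above background (33113 against 33498 to 36373 on the other arrays), and the part of these in its levels was not tested. Over the 8 arrays, 19 of the 28 pairs of members had a positive Pearson r, with a median of 0.33 and a range of -0.47 to 0.89. The highest were Serpina3n with Cp (0.89), Cp with Cd44 (0.81) and Serpina3n with Cd44 (0.72), all of which share the deviation of KO replicate 2, and the lowest was Timp1 with Cntf (-0.47). The non-member genes most like the members' mean in this respect were Gpr139 (r = 0.979), Pmfbp1 (0.977), Rxylt1 (0.972), Cnot7 (0.969) and Trmt1l (0.959), each over 8 arrays. None of them was called between the genotypes (limma adjusted p 0.337 to 0.971). They were picked as the highest among all other tested genes, and r values this high can come from the picking alone. The members' mean rests largely on KO replicates 1 and 2, and shared regulation was not tested.

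**Figure D4:**
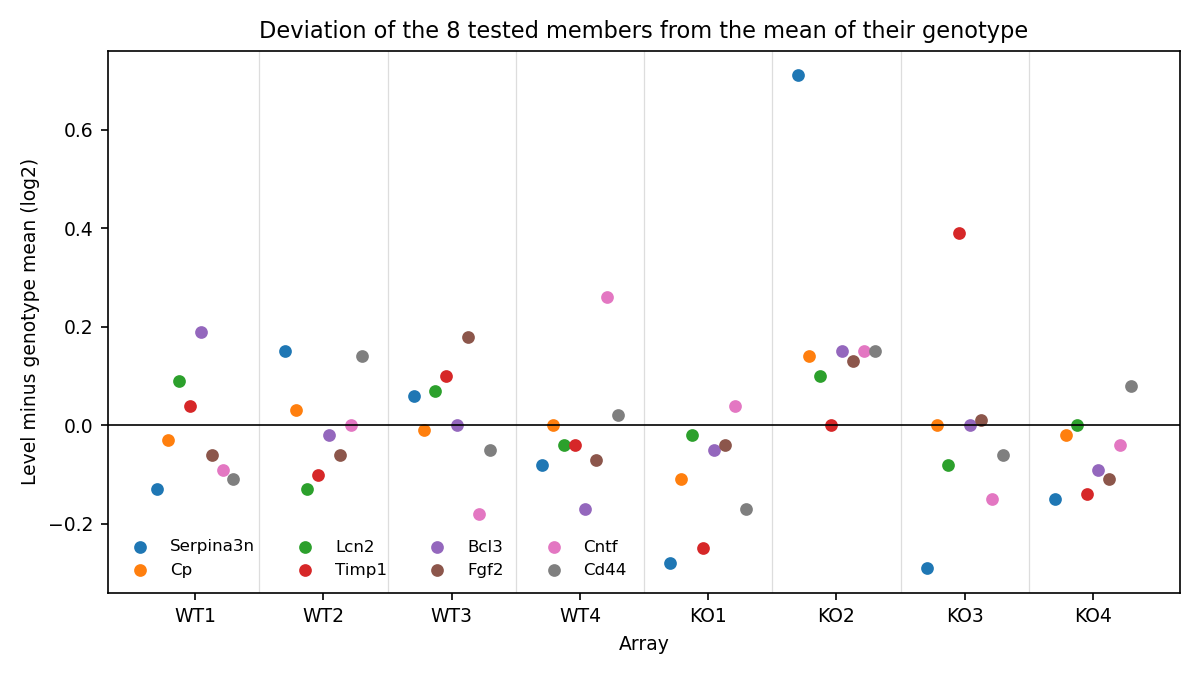
Deviation of the 8 tested members (colours) from the mean of their own genotype on each array (vertical axis, log2). On KO replicate 2 (KO2) 7 of the 8 members lie above 0, with Serpina3n at 0.71, and Timp1 stands out on KO replicate 3 (KO3) at 0.39.

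The calls on the members rested on small margins. Over 21 alternative settings, Fgf2 was called in 8, Cp in 7, Cd44 probe A_55_P2064043 in 5 and Bcl3 in 2, and the other tested members in 0. The adjusted p of Fgf2 ran from 0.0303 to 0.113, that of Cd44 probe A_55_P2064043 from 0.0178 to 0.141 and that of Bcl3 from 0.0395 to 0.159. The direction of these 4 probes and of Lcn2, Timp1, Cntf and the second Cd44 probe was kept in all 21, and Serpina3n turned in 1 of 20.

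**Figure D5:**
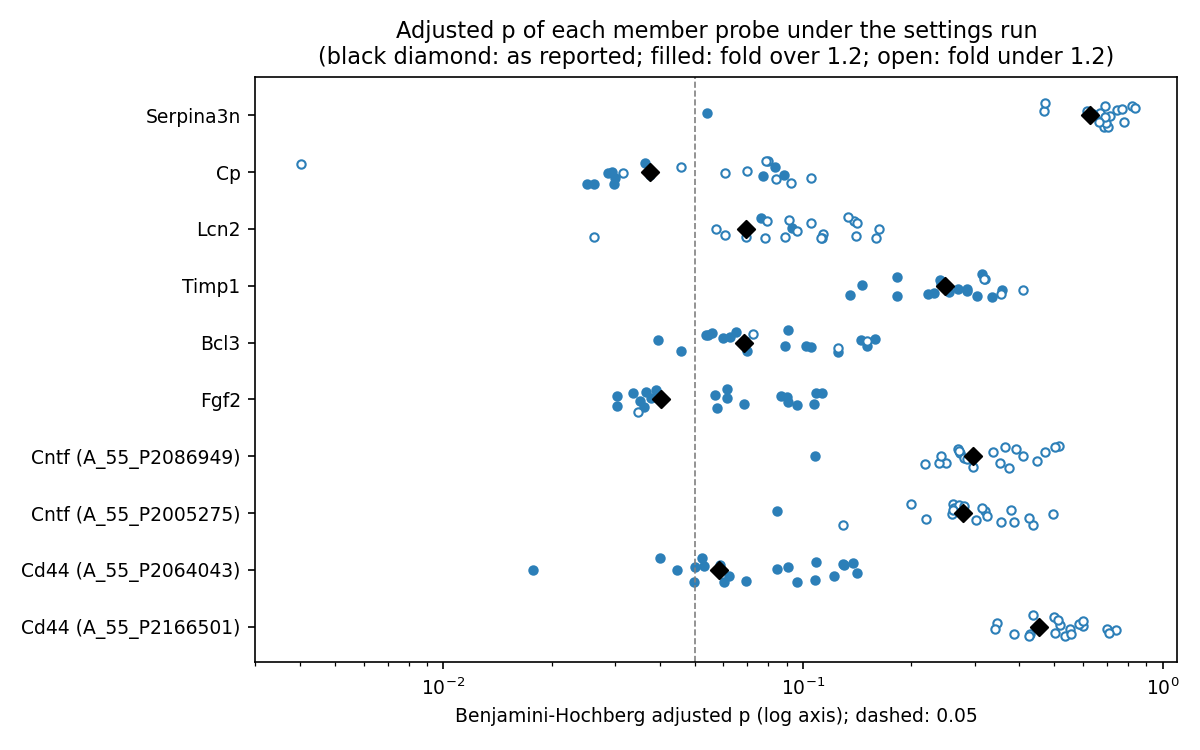
Benjamini-Hochberg adjusted p (log axis) of each tested member probe as reported (black diamonds) and under each alternative setting (blue points; filled where the fold change exceeds 1.2, open where it does not); the dashed line marks 0.05. The points of Fgf2, Cp, Bcl3 and Cd44 probe A_55_P2064043 fall on both sides of the line, while those of Timp1, Cntf, Serpina3n and Cd44 probe A_55_P2166501 stay to its right.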

How the data were processed

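The 8 whole-retina samples (4 WT, 4 KO, age 2 weeks) were grouped per the labels. The authors quantified 1-colour scans with Agilent Feature Extraction 10.7.1.1, and the deposited scanner files hold intensity on a linear scale, background-subtracted, detrended and not scaled between arrays, with flags per spot. GeneSpring values shifted by the authors to each array's 75th percentile are in the deposited series table, on a log2 scale, and served as an alternative. No per-sample column was left out (0 columns).

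Levels were log2 processed signal minus that array's 75th percentile (59305 spots, controls excluded). Outlier spots (86 to 147 per array) were left out, and repeated spots averaged. Probes well above background on all 4 arrays of a genotype were tested (33972 of 55681). Symbols came from RefSeq by transcript (26413 probes, 47.4%). The table's build, GRCm38.p6, differs from the array's (mm9), so it served for names, neighbours and promoter sequence. Genotypes were compared with limma 3.58.1 (R 4.3.3), no covariates, Benjamini-Hochberg over all tested probes, and single values by two-sided exact permutation. The number of arrays limits the precision. The fit was tested on simulated data with independent normal values. It called 16 of 50 probes changed by 0.3, 108 of 150 changed by 0.5 or more, and 7 unchanged ones. A member not called may therefore still differ by such an amount.

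The members and lists were chosen with earlier results of these data known. All members, Lpcat1, up to 5 called genes per companion list, up to 3 per marker list and the 5 genes most like the members were named by rule; further genes of the lists were named after their values were seen. A list's median uses each gene's brightest probe, and a gene counts as called when any probe was. Alternatives were quantile normalization, median shift, the 75th percentile of detected probes, cyclic loess, normexp (offset 50, on median signals, since mean spot signals were not used here), 2 other filters, the methods' t-test, trend and robust eBayes, array weights, the authors' values, outlier spots kept, a replicate block, the mean of a gene's probes, other thresholds and each array left out.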

Additional observations from a re-analysis of the deposited data

Results flagged for a closer look

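In 20 groups of 4 arrays, 1 per genotype and tested member probe, a single array stood apart from the others in 2, where chance marks about 1 group in 20. For Serpina3n in KO, the gap between KO replicate 2 and the nearest other KO array was 0.87 of the whole range of the group, past Dixon's 95% limit for 4 values. For Fgf2 in WT, the gap between WT replicate 3 and the nearest other WT array was 0.96 of the range, also past it.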

How the results depend on the processing

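Against 992 probes called (47.4% of them higher in KO), no filter on dim probes gave 246, a minimum fold change of 1.5 gave 138, an adjusted p under 0.5 gave 3136, and leaving out single arrays gave 391 (without WT replicate 2) to 1182 (without KO replicate 1). Without any array other than KO replicate 1 it was at most 552. The share called higher was 61.3% with the 75th percentile of detected probes, 64.8% with cyclic loess, and 57.1% with quantile normalization, and these scalings moved the median of all tested probes from -0.04 to -0.02, 0.00 and -0.02. Against 1 member gene called, quantile normalization and the authors' values gave 2 (Cp and Fgf2), the 75th percentile of detected probes 3 (Cd44, Cp and Fgf2), cyclic loess and array weights 3 (Bcl3, Cp and Fgf2), the filter on all arrays 2 (Cd44 and Fgf2), the mean of a gene's probes 2 (Bcl3 and Fgf2), and an adjusted p under 0.5 gave 4 (Bcl3, Cd44, Fgf2 and Timp1). A median shift, no filter, the methods' t-test and a minimum fold change of 1.5 gave 0. Normexp gave 1 (Cp), and limma with trend and robust eBayes 1 (Cd44). Leaving out single arrays gave 0 to 2, with Fgf2 called without WT replicate 3, Cd44 and Cp without KO replicate 1 and 0 without any of the other 6. The members' median of 0.27 moved to 0.17 with normexp and ran from 0.24 to 0.31 without single arrays. Serpina3n turned to 0.07 with normexp. The cause of these changes was not tested.

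With replicate number as a block, 395 probes were called, 1 member gene (Cd44, while Fgf2 had an adjusted p of 0.0686) and 7 companion genes against 13 without it. Same-numbered arrays of both genotypes had correlations of their deviations of 0.249, 0.069, 0.037 and 0.112 (replicates 1 to 4). The best correlation of the same WT arrays with a KO array of another number was 0.008, 0.060, 0.045 and 0.018. The labels do not say whether the numbers pair the samples, and pairing was not tested. Fgf2, Serpina3n, A2m, Steap4 and Cd44 probe A_55_P2166501 lie close to background, which limits what their probes can show.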
